A study of Mus musculus with 17 samples.

Results

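Genes of S phase and of mitosis, 48 in all, were followed across 17 mouse bone marrow libraries. The genes were chosen by symbol from a list of 21 S phase members and 27 G2/M members (G2 phase and mitosis). All 48 were found among the 47643 gene rows of the count table, and all 48 had enough counts to be tested together with 19951 genes in all. The list came with earlier results of these data known, and no threshold on their values selected the members.

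Bulk RNA was sequenced from bone marrow cells sorted as cKit+ Lymph- Ery-, that is, cells with the cKit receptor of stem and progenitor cells and without lymphoid and erythroid markers. The study crossed a heterozygous deletion of the URE, the upstream regulatory element (an enhancer) of Spi1, which encodes the transcription factor PU.1, with loss of 1 or both copies of Tet2, which encodes an enzyme that oxidises 5-methylcytosine. The 4 genotypes labelled Normal were wild type (WT, URE+/+;Tet2+/+, n = 3), UREΔ/+;Tet2+/+ (URE het, n = 3), URE+/+;Tet2+/- (Tet2 het, n = 3) and URE+/+;Tet2-/- (Tet2 KO, n = 3). The genotypes labelled AML (acute myeloid leukaemia) were UREΔ/+;Tet2+/- (URE het Tet2 het, n = 2) and UREΔ/+;Tet2-/- (URE het Tet2 KO, n = 3). Controls were age-matched per the series' design text, but ages and sexes were not given. All 5 AML libraries carried mutations at both loci, so leukaemia and the combined genotype cannot be told apart. The labels do not tie libraries to single mice, so p-values measure the spread between libraries, which may be technical. In bulk RNA, fewer cells in a phase and less RNA per cell cannot be told apart.

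DNA replication begins when origins are licensed by loading the MCM helicase in G1 phase, and continues in S phase with helicase activation, DNA synthesis and a supply of nucleotides. Mitosis follows under cyclin A, cyclin B and the kinase Cdk1, with the Aurora and Polo kinases, kinetochores that hold chromosomes to the spindle, and a final cleavage of the cell. Genes of S phase are commonly driven by E2F factors, and genes of G2 and mitosis by factors that act at CHR elements and CCAAT boxes. Cycling progenitors of the marrow express both sets, and quiescent stem cells express little of either.

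Promoters are shown for 4 members to set these motifs beside the measurements: Rrm1 and Mcm6 of the S phase list, and Top2a and Cdk1 of the G2/M list. The 250 bases before the start site are given 5′ to 3′ on the gene's strand, from RefSeq on GRCm38.p6. Capitals mark matches on either strand to an E2F site (TTTCGCGC, TTTGGCGC, TTTCCCGC or TTTGCCGC), a CHR element (TTTGAA or TTCGAA) or a CCAAT box (CCAAT). The windows are chr7:102441445-102441694 on the plus strand for Rrm1, chr1:128359706-128359955 on the minus strand for Mcm6, chr11:99024190-99024439 on the minus strand for Top2a and chr10:69352913-69353162 on the minus strand for Cdk1.
Rrm1: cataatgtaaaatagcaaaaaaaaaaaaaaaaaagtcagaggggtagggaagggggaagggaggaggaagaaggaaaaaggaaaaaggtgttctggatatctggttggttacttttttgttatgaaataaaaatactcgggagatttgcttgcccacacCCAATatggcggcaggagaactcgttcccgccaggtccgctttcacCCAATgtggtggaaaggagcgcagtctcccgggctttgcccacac
Mcm6: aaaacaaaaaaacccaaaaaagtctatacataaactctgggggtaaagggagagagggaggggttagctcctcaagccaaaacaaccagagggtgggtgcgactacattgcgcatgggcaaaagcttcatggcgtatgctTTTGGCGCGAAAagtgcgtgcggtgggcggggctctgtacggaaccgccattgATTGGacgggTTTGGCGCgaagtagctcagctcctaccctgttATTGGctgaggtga
Top2a: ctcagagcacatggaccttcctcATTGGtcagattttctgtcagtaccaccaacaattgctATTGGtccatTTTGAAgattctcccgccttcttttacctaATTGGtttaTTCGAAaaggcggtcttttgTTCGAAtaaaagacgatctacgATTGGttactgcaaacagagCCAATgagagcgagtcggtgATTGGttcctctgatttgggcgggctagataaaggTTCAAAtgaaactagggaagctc
Cdk1: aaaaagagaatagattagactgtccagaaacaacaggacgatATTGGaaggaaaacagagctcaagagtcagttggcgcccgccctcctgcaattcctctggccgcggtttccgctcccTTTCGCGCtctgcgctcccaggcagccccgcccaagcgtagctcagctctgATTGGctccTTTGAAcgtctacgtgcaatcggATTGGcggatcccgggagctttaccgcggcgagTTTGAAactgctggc

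The window of Rrm1, which encodes the large subunit of ribonucleotide reductase, held 2 CCAAT matches and no E2F or CHR match. That of Mcm6, a subunit of the MCM helicase, held 3 E2F matches, of which an upstream pair overlapped on opposite strands in the capitals TTTGGCGCGAAA, and 2 CCAAT matches. That of Top2a, which encodes the topoisomerase that untangles sister chromatids, held 4 CHR and 6 CCAAT matches. That of Cdk1 held 1 E2F, 2 CHR and 3 CCAAT matches.

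Across the 43 of 48 members matched by symbol in the RefSeq table, with windows of 300 bases (250 before and 50 after the start site), the lists differed in their motifs. An E2F match lay in 6 of 18 S phase promoters (33.3%) and in 1 of 25 G2/M promoters (4.0%), that of Cdk1, against 2.26% of all 32851 promoters in the table. A CHR match lay in 4 of 18 S phase promoters (22.2%) and 20 of 25 G2/M promoters (80.0%), against 19.2% of all. A CCAAT match lay in 11 of 18 (61.1%) and 18 of 25 (72.0%), against 37.4% of all. TTCGAA reads the same on both strands and was counted once. A match is a string of letters and not a measured binding site.

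**Figure D1:**
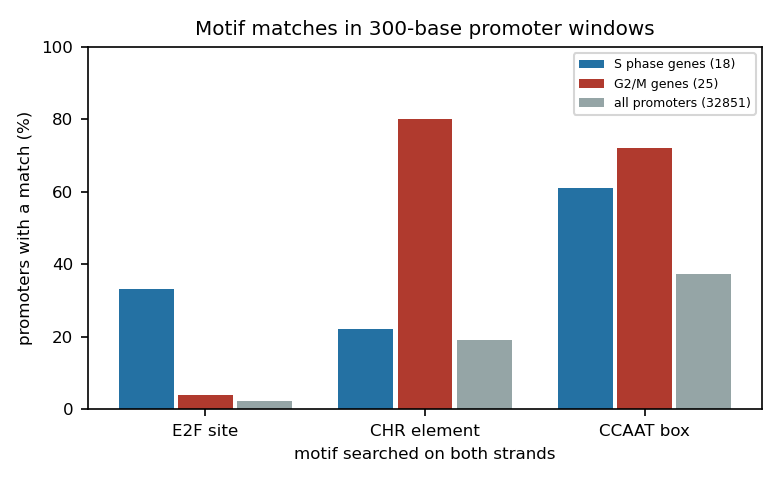
Share of promoter windows (percent, bars from 0) that held at least 1 match to an E2F site, a CHR element or a CCAAT box, for 18 S phase members, 25 G2/M members and all 32851 promoters of the table. CHR matches reached 80.0% of G2/M promoters, and E2F matches reached 33.3% of S phase promoters.

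The libraries held 21.1 to 38.3 M gene counts each. Levels below are CPM (gene counts scaled to 1 M per library with TMM factors). Gene-level counts do not check the labels here: the deleted part of Tet2 was not given, and the URE lies outside the Spi1 gene. Tet2 lay at 80.2 to 86.3 CPM in the 3 Tet2 KO libraries, at 92.5 to 176 in the other 9 Normal libraries and at 112 to 234 in the 5 AML libraries. Spi1 lay at 45.3 to 137 CPM in Normal libraries and at 7.83 to 98.6 in AML libraries. Kit was present in every library, at up to 187 CPM.

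A set of 3 AML libraries stood apart from the other 14. The libraries were replicate 1 of URE het Tet2 het and replicates 2 and 3 of URE het Tet2 KO. In them the 339 genes of chromosome 2 from 60 to 160 Mb had medians of 52.5%, 51.9% and 52.5% of their Normal level, relative to the median of the other chromosomes. In the other 14 libraries these medians were between 97.5% and 104.6%. No member lies in that interval. Mcm10 (chr2:4989714-5012791) and Aurka (chr2:172356190-172370535) lie on chromosome 2 outside it, and the 48 members are spread over 16 chromosomes. Spi1 was at 21.6, 7.83 and 12.25 CPM in the 3 libraries, and at 34.9 and 98.6 CPM in the other 2 AML libraries. Results for the members and the companion genes in AML minus Normal are therefore given with and without these 3 libraries, a choice made once the data had been seen. Without them each compound genotype is 1 library, whose spread is assumed to be like that of the other groups.

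The 2 lists separated these libraries from the rest. The level of a list is the mean over its members of log2(CPM + 0.5). S phase levels of the 12 Normal libraries lay between 5.48 and 5.79, and G2/M levels between 6.39 and 7.14. In the 3 libraries with low chromosome 2, in the order given above, S phase levels were 4.68, 4.71 and 5.39, and G2/M levels were 5.93, 5.46 and 5.92. All 6 values lay below every Normal library. The other AML libraries did not: URE het Tet2 het replicate 2 had an S phase level of 5.61 and a G2/M level of 6.5, within the Normal ranges, and URE het Tet2 KO replicate 1 had 5.90, above every Normal library, and 7.14, equal to the highest.

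**Figure D2:**
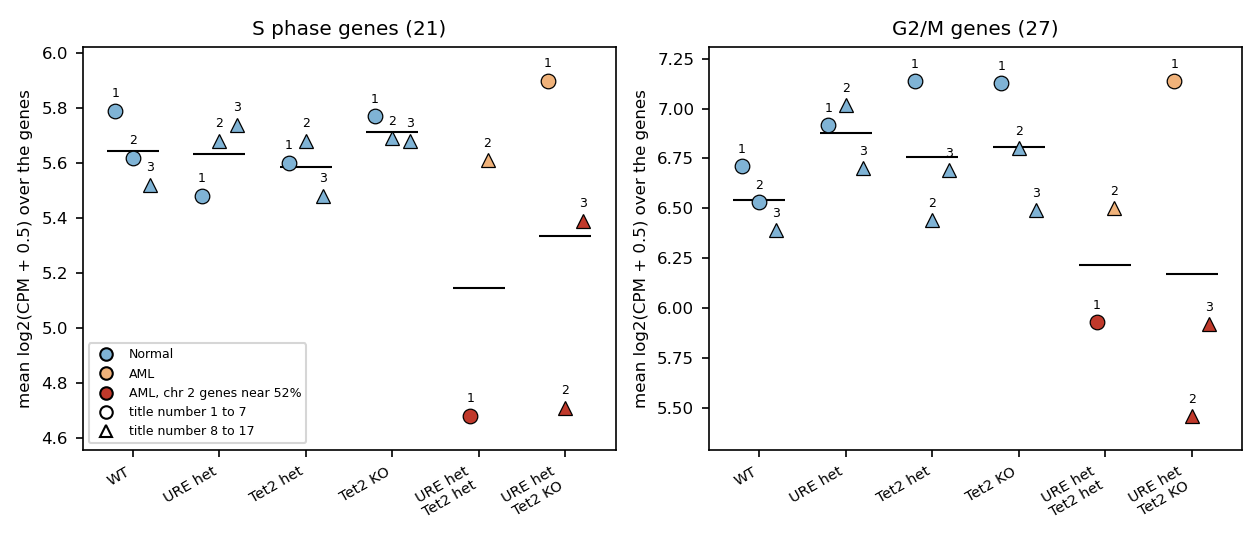
Mean log2(CPM + 0.5) over the 21 S phase members and the 27 G2/M members in each of the 17 libraries by genotype. Each dot is a library with its replicate number, the horizontal line is the group mean, colour marks Normal, AML and AML with chromosome 2 near 52% of Normal, and the shape marks the range of title numbers (circle 1 to 7, triangle 8 to 17); the 3 libraries with low chromosome 2 lie below all Normal libraries on both lists.

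Among Normal genotypes the G2/M level varied more than the S phase level. The G2/M level was 6.54 ± 0.16 (SD, n = 3) in WT, 6.88 ± 0.16 (SD, n = 3) in URE het, 6.76 ± 0.35 (SD, n = 3) in Tet2 het and 6.81 ± 0.32 (SD, n = 3) in Tet2 KO. The groups' ranges overlapped. Within Tet2 het the G2/M level alone ran from 6.44 to 7.14.

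Measured per length (RPKM, mean over the 17 libraries), Mki67 was the most abundant member at 212, followed by Top2a at 111, Ccnb2 at 65.5 and Mcm6 at 51.0. Mki67 encodes the Ki-67 protein that coats mitotic chromosomes, and Ccnb2 a B-type cyclin. The least abundant were Fen1, a flap endonuclease, at 0.249 and Ccne1, cyclin E1, at 3.31. Fen1 shares 84.2% of its exon bases with genes on the other strand, and how the counting treated strand was not given, so its level is uncertain. The same holds for Gins2, with 67.3% shared.

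The first comparison set AML against Normal, as the mean of the 2 compound genotypes minus the mean of the 4 others. Of the 48 members, 3 were lower in AML, 1 of the S phase list and 2 of the G2/M list, and none was higher (edgeR quasi-likelihood test, Benjamini-Hochberg adjusted p under 0.05 over all genes tested). The 3 were Rrm1, Ccna2 and Top2a. Among all genes tested 11% passed, 6.94% higher and 4.02% lower. The members' share of calls was thus below that of all genes for both directions together, and above it for lower calls alone. At an unadjusted p under 0.05 there were 17 of 48 members (7 S phase and 10 G2/M), against 26.3% of all genes. Values were below 0 for 19 of 21 S phase members, with a median log2 fold change of -0.34, and for 27 of 27 G2/M members, with a median of -0.45. Over all genes tested the median was 0.05 and 45.8% were below 0. No member had all 5 AML libraries below all 12 Normal libraries, which held for 0.692% of all genes, and none had them all above, which held for 0.827%.

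Without the 3 libraries with low chromosome 2, no member passed in edgeR, against 1.85% of all genes, and 4 had an unadjusted p under 0.05, against 17%. The median was then 0.00 for S phase members and -0.02 for G2/M members. DESeq2 and voom were not run on this subset. With those 3 as the only AML libraries, 41 members passed (16 S phase and 25 G2/M), all lower, among 26.5% of all genes, and the medians were -0.80 and -0.94. Both subsets were chosen with the data in view.

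The difference between AML libraries was seen gene by gene. In URE het Tet2 KO replicate 2, 47 of 48 members lay below all 12 Normal libraries, as did 22% of all genes tested. In URE het Tet2 het replicate 1 there were 42, against 21.6% of all genes. In URE het Tet2 KO replicate 3 there were 31, against 18.5%, made up of 26 of 27 G2/M members and 5 of 21 S phase members. URE het Tet2 het replicate 2 had 11 members below all Normal libraries, against 15.2% of all genes, and 6 above, against 20.5%. URE het Tet2 KO replicate 1 had 1 below, against 15.3%, and 15 above, against 14.9%. The 3 libraries with low chromosome 2 all lay below all 12 Normal libraries for 27 members, against 9.17% of all genes. These were 22 of 27 G2/M members and 5 of 21 S phase members, namely Mcm4, Mcm10, Rrm2, Tyms and Slbp.

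**Figure D3:**
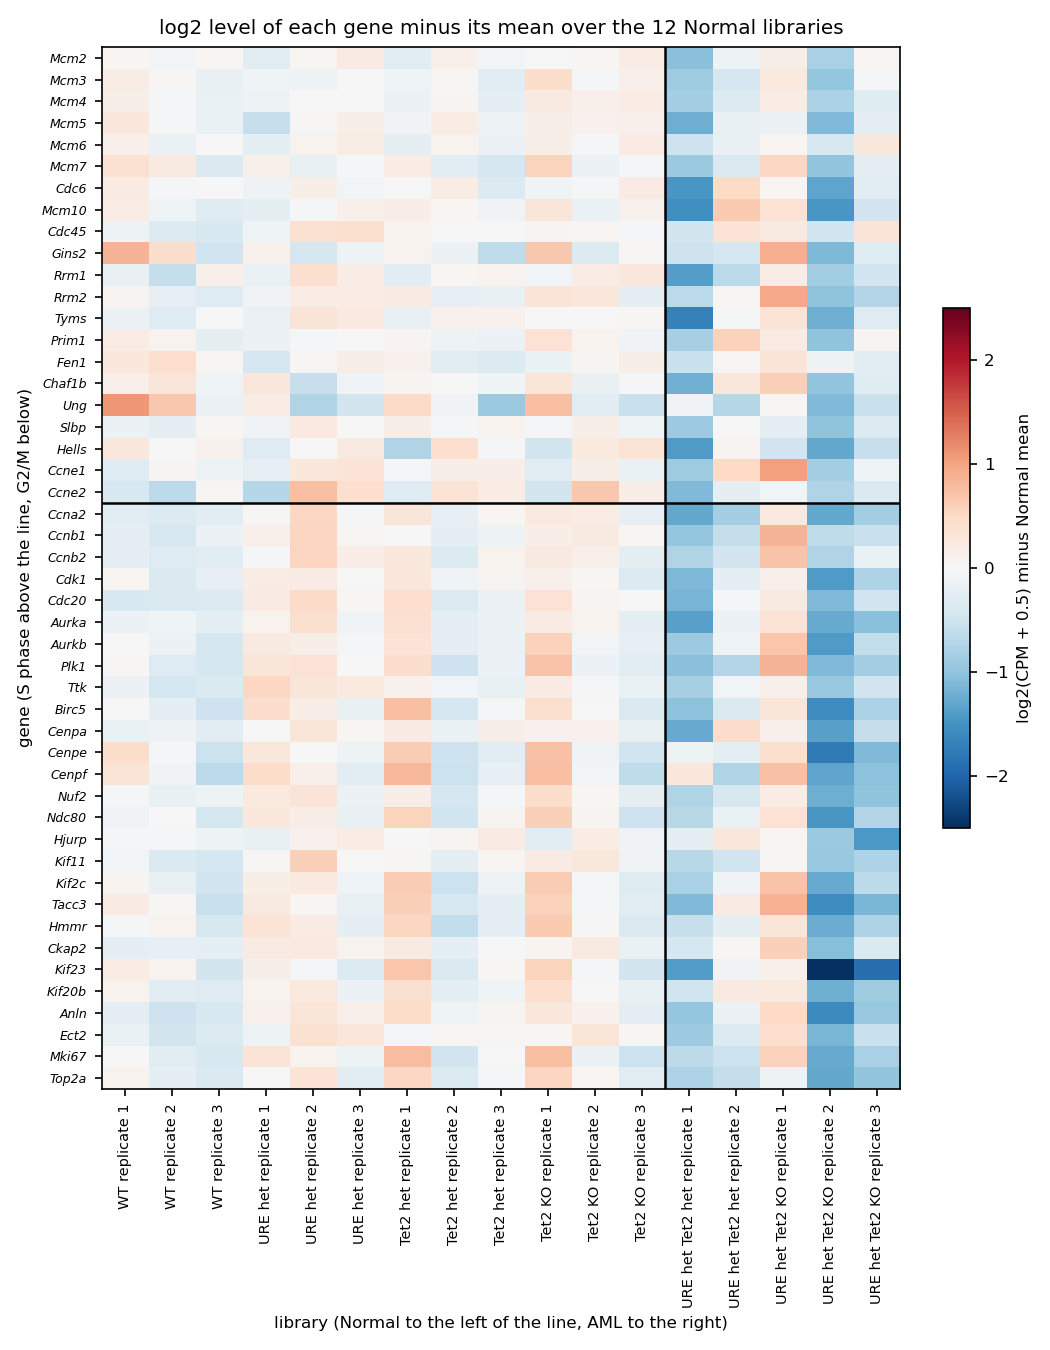
Level of each of the 48 members (rows, by role) in each of the 17 libraries (columns), as log2(CPM + 0.5) minus the mean of the 12 Normal libraries, on a colour scale from -2.5 to 2.5. URE het Tet2 KO replicate 2 was below all 12 Normal libraries for 47 members, and URE het Tet2 KO replicate 1 for 1.

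Origin licensing came first in the order of roles. The subunits of the MCM helicase (Mcm2 to Mcm7) and the loader Cdc6 had AML minus Normal values from -0.54 to -0.17, with a median of -0.40, and none of the 7 passed. Mcm2 lay at 89.1 to 125 CPM in Normal libraries, with a median of 112. In AML it was at 52.6 and 99.1 CPM in URE het Tet2 het replicates 1 and 2, and at 120.0, 62.1 and 113 CPM in URE het Tet2 KO replicates 1 to 3. Only 2 of the 5 lay below the Normal range (log2 fold change -0.34 ± 0.18 SE, edgeR adjusted p = 0.243).

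Mcm6 (chr1:128331590-128359664, minus strand) had the value nearest to 0 of this group. It lay at 204 to 279 CPM in Normal libraries, with a median of 251. Its AML levels were 170.2, 215, 251, 184 and 293 CPM, in the same order of libraries. The highest of the 5 was above and the lowest pair was below the Normal range (log2 fold change -0.17 ± 0.14 SE, edgeR adjusted p = 0.466). Its promoter was the one with 3 E2F matches.

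Of the factors that switch the loaded helicase on, none of the 3 passed. Mcm10, which binds the loaded helicase, and Gins2, a subunit of GINS, had values of -0.21 and -0.27. Cdc45, part of the active helicase with MCM and GINS, lay at 33.1 to 57.0 CPM in Normal libraries, with a median of 43.1. It was at 31.3, 54.9, 50.7, 30.8 and 53.8 CPM in the AML libraries. The 3 higher values lay within the Normal range, and the 2 lower ones just under it (log2 fold change 0.02 ± 0.16 SE, edgeR adjusted p = 0.951). The sign of so small a value changed with the scaling, to -0.01 with DESeq2 size factors.

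Nucleotide supply held the only S phase member that passed. Rrm1 (chr7:102441695-102469771, plus strand) lay at 129.6 to 256 CPM in Normal libraries, with a median of 206. It was at 74.7, 122, 222, 106 and 140.4 CPM in the AML libraries. URE het Tet2 KO replicate 1 was above the Normal median, replicate 3 was inside the lower end of the Normal range, and the other 3 AML libraries were below it. Rrm1 was 1.59-fold lower in AML (log2 fold change -0.67 ± 0.20 SE, edgeR adjusted p = 0.0411). The call was lost in 14 of 27 alternatives. It was lost without URE het Tet2 het replicate 1 (edgeR adjusted p = 0.191), URE het Tet2 KO replicate 2 (0.0857) or replicate 3 (0.0817). It was also lost without WT replicate 1 (0.0607) or 3 (0.0625), URE het replicate 2 (0.0584) or 3 (0.0589), Tet2 het replicate 2 (0.0536) or 3 (0.0566), and Tet2 KO replicate 2 (0.0558) or 3 (0.0644). With the 3 libraries with low chromosome 2 left out the value was -0.30 ± 0.21 SE (edgeR adjusted p = 0.484).

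Rrm2, which encodes the small subunit of the same reductase, had a value of -0.14 ± 0.27 SE (edgeR adjusted p = 0.794). In replicate 1 of URE het Tet2 KO it reached 233 CPM, above all Normal libraries, and it lay at 59.1 to 75.3 CPM in the 3 libraries with low chromosome 2, below them all. Tyms, thymidylate synthase, had a value of -0.46 ± 0.25 SE (edgeR adjusted p = 0.270).

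DNA synthesis, repair and chromatin assembly behind the fork gave 6 members with values from -0.65 to -0.06, and none passed. Hells, a chromatin remodeller needed for DNA methylation, had the lowest value of the S phase list after Rrm1. It lay at 44.2 to 101 CPM in Normal libraries, with a median of 77.7, and at 27.7, 78.3, 53.2, 30.6 and 50.3 CPM in the AML libraries. Its AML values spread across and below the Normal range (log2 fold change -0.65 ± 0.25 SE, edgeR adjusted p = 0.113).

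Prim1, the primase that starts each new strand, lay at 53.8 to 82.3 CPM in Normal libraries, with a median of 63.3. It was at 35.6, 96.0, 74.3, 31.6 and 67.5 CPM in the AML libraries. AML values thus lay on both sides of the Normal range (log2 fold change -0.06 ± 0.22 SE, edgeR adjusted p = 0.900). Without the 3 libraries with low chromosome 2 the value was 0.35. Slbp, which binds the stem loop of histone mRNA, had a value of -0.44 ± 0.16 SE (edgeR adjusted p = 0.0964), Ung, which removes uracil from DNA, -0.53 ± 0.31 SE (0.303), and Chaf1b, a subunit of chromatin assembly factor, -0.20 ± 0.27 SE (0.690).

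The E cyclins, which start S phase with Cdk2, gave opposite signs. Ccne1 lay at 6.73 to 10.9 CPM in Normal libraries, with a median of 8.6, and at 4.36, 12.3, 17.7, 4.53 and 7.89 CPM in the AML libraries. Both AML libraries without low chromosome 2 were above the Normal range, and 2 of the 3 with it were below (log2 fold change 0.09 ± 0.28 SE, edgeR adjusted p = 0.875). Without the 3 the value was 0.74 ± 0.19 SE (edgeR adjusted p = 0.0674), and with them alone -0.73 ± 0.22 SE (0.0228).

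Ccne2 lay at 24.3 to 67.7 CPM in Normal libraries, with a median of 42.8. It was at 18.4, 33.7, 38.4, 23.5 and 31.1 CPM in the AML libraries. All AML values were below the Normal median and 2 were below the Normal range (log2 fold change -0.56 ± 0.26 SE, edgeR adjusted p = 0.184). Ccne2 shares 17.4% of its exon bases with Ints8 on the other strand.

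Cyclin A2 led the mitotic cyclins. Ccna2 (chr3:36564865-36572150, minus strand) lay at 121 to 221 CPM in Normal libraries, with a median of 155. It was at 63.4 and 85.3 CPM in URE het Tet2 het replicates 1 and 2, and at 182, 63.1 and 84.5 CPM in URE het Tet2 KO replicates 1 to 3. The first of the latter was above the Normal median, and the other 4 AML libraries were below the whole Normal range. Ccna2 was 1.72-fold lower in AML (log2 fold change -0.78 ± 0.22 SE, edgeR adjusted p = 0.0340). The call was lost in 10 of 27 alternatives. It was lost without URE het Tet2 het replicate 1 (edgeR adjusted p = 0.151) and without URE het Tet2 KO replicate 2 (0.0664) or 3 (0.0791). It was also lost without WT replicate 1 (0.0533) or 3 (0.05), URE het replicate 2 (0.0514), Tet2 het replicate 1 (0.0503) or Tet2 KO replicate 2 (0.0505). When the 3 libraries with low chromosome 2 were left out it was -0.36 ± 0.20 SE (edgeR adjusted p = 0.372). Ccna2 shares 12.5% of its exon bases with Exosc9 on the other strand.

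Cdk1 (chr10:69335146-69352938, minus strand), the kinase that these cyclins activate, lay at 39.5 to 62.0 CPM in Normal libraries, with a median of 52.5. It was at 22.9, 42.6, 55.6, 18.6 and 29.6 CPM in the AML libraries. The 3 libraries with low chromosome 2 were below the Normal range and the other 2 within it (log2 fold change -0.60 ± 0.22 SE, edgeR adjusted p = 0.0971). With those 3 alone as AML the value was -1.13 ± 0.19 SE (edgeR adjusted p = 0.000532), and without them -0.11 ± 0.17 SE (0.794).

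Ccnb1, cyclin B1 (chr13:100778650-100786570, minus strand), lay at 57.3 to 111 CPM in Normal libraries, with a median of 76.9. It was at 38.6, 50.1, 136, 48.7 and 51.0 CPM in the AML libraries. URE het Tet2 KO replicate 1 was above the whole Normal range and the other 4 AML libraries were below it (log2 fold change -0.36 ± 0.21 SE, edgeR adjusted p = 0.298). Ccnb2 had a value of -0.29 ± 0.20 SE (edgeR adjusted p = 0.405), and Cdc20, the activator of the anaphase-promoting complex, -0.45 ± 0.23 SE (0.222).

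The mitotic kinases and their partner survivin gave values from -0.62 to -0.33, with a median of -0.53, and none of the 5 passed. Aurka, the Aurora kinase of the spindle poles, had a value of -0.57 ± 0.26 SE (edgeR adjusted p = 0.186), and Aurkb, that of the centromere, -0.33 ± 0.28 SE (0.484). Plk1, the Polo-like kinase, had a value of -0.53 ± 0.30 SE (edgeR adjusted p = 0.281). Birc5, survivin, had -0.62 ± 0.29 SE (0.185), and Ttk, the kinase of the spindle checkpoint, -0.39 ± 0.17 SE (0.166).

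Centromere and kinetochore genes had values from -0.57 to -0.27 and a median of -0.38, and none of the 6 passed. Cenpf, a large kinetochore protein, lay at 153 to 429.5 CPM in Normal libraries, with a median of 227. It was at 290.2, 144, 403, 96.8 and 119 CPM in the AML libraries. The AML values ran from below the Normal range to near its top, and URE het Tet2 het replicate 1 lay high within it (log2 fold change -0.27 ± 0.36 SE, edgeR adjusted p = 0.691). Cenpa, the histone variant of the centromere, had a value of -0.34, Hjurp, its chaperone, -0.30, the motor Cenpe -0.42, and the outer kinetochore genes Ndc80 and Nuf2 -0.45 and -0.57.

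Spindle genes had values from -0.56 to -0.16. Kif11, the motor that separates the spindle poles, came closest to the threshold without passing it (log2 fold change -0.56 ± 0.18 SE, edgeR adjusted p = 0.0537). Tacc3, which stabilises spindle microtubules, lay at 52.7 to 118 CPM in Normal libraries, with a median of 77.5, and at 35.7, 90.2, 143, 25.7 and 34.7 CPM in the AML libraries. The 3 libraries with low chromosome 2 were below the Normal range, and URE het Tet2 KO replicate 1 was above it (log2 fold change -0.29 ± 0.36 SE, edgeR adjusted p = 0.665).

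Ckap2, a microtubule-associated protein of the spindle, lay at 31.5 to 44.2 CPM in Normal libraries, with a median of 37.8. It was at 27.2, 38.0, 56.0, 17.5 and 28.9 CPM in the AML libraries, in the same pattern as Tacc3 (log2 fold change -0.16 ± 0.21 SE, edgeR adjusted p = 0.684). Hmmr, a spindle assembly factor, had a value of -0.46 and Kif2c, a kinesin that shortens microtubules, -0.33.

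Genes of cytokinesis had the lowest value of all members. Kif23, a kinesin of the central spindle, lay at 88.2 to 198 CPM in Normal libraries, with a median of 122. It was at 45.9, 115, 134, 19.0 and 32.6 CPM in the AML libraries. The 3 libraries with low chromosome 2 were below the Normal range and the other 2 lay within it (log2 fold change -0.83 ± 0.39 SE, edgeR adjusted p = 0.190). With those 3 alone as AML it was -1.88 ± 0.32 SE (edgeR adjusted p = 0.000610), and without them -0.06 ± 0.29 SE (0.946). Anln, an anillin of the cleavage furrow, had a value of -0.46, Ect2, which activates RhoA at the furrow, -0.45, and the kinesin Kif20b -0.30.

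Chromosome structure was covered by Top2a and Mki67. Top2a (chr11:98992943-99024189, minus strand) lay at 859.9 to 1607 CPM in Normal libraries, with a median of 1083. It was at 648 and 732 CPM in URE het Tet2 het replicates 1 and 2, and at 1006, 458 and 555 CPM in URE het Tet2 KO replicates 1 to 3. The AML libraries other than URE het Tet2 KO replicate 1, 4 in all, were below the Normal range. Top2a was 1.66-fold lower in AML (log2 fold change -0.73 ± 0.22 SE, edgeR adjusted p = 0.0493). The call was lost in 17 of 27 alternatives. Among the 17 leave-outs of 1 library it was kept only without URE het Tet2 KO replicate 1 (edgeR adjusted p = 0.00593), Tet2 het replicate 2 (0.0437) or Tet2 KO replicate 3 (0.0491), and over the other 14 leave-outs adjusted p was 0.0535 to 0.161. Left without the 3 libraries with low chromosome 2 the value was -0.44 ± 0.27 SE (edgeR adjusted p = 0.434).

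Mki67 (chr7:135689784-135716361, minus strand) lay at 1538 to 3805 CPM in Normal libraries, with a median of 2111. It was at 1413, 1521, 3315, 925 and 1266 CPM in the AML libraries. The same 4 AML libraries as for Top2a were below the Normal range, but the Normal libraries themselves spread widely (log2 fold change -0.49 ± 0.30 SE, edgeR adjusted p = 0.332).

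By role, the medians split with the libraries. With all 5 AML libraries the 11 roles had medians from -0.61 (Mki67 and Top2a) to -0.21 (helicase activation). Without the 3 libraries with low chromosome 2 these were -0.26 and 0.24, and all 11 lay between those values. With the 3 alone as AML, all 11 were between -1.08 (mitotic kinases) and -0.68 (helicase activation).

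**Figure D4:**
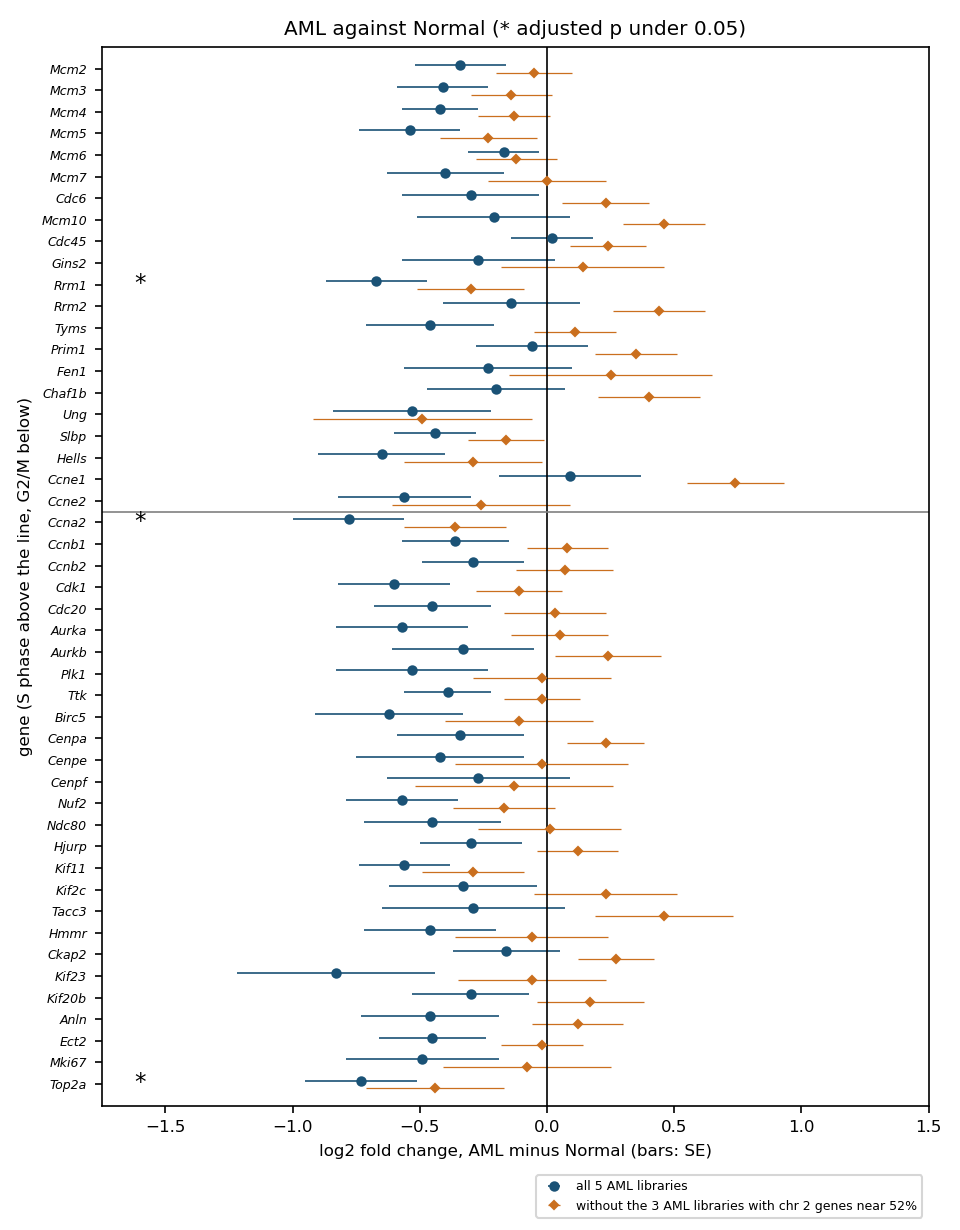
Log2 fold change (AML minus Normal) ± SE for each of the 48 members by role, with all 5 AML libraries and without the 3 with low chromosome 2. Asterisks mark the members that passed with all 5, Rrm1, Ccna2 and Top2a; without the 3 no member passed.

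Leaving out single libraries moved the count of called members from 0 to 30. There were 30 without URE het Tet2 KO replicate 1 (7 S phase and 23 G2/M, among 20.1% of all genes) and 15 with replicate 2 of URE het Tet2 het left out (9 and 6, among 18.1%), all lower. No member passed in edgeR without WT replicate 1 or 3, URE het replicate 2, Tet2 KO replicate 2, URE het Tet2 het replicate 1, or URE het Tet2 KO replicate 2 or 3. In those 7 fits 4 to 14 members had an unadjusted p under 0.05, against 21.3% to 25.7% of all genes, and no other tool was run. The count was 1 without URE het replicate 3, Tet2 het replicate 1 or Tet2 het replicate 3. DESeq2 called 8 members (Rrm1, Ccna2, Top2a, Kif11, Mcm4, Mcm5, Slbp and Cdk1, all lower, among 16.3% of all genes). Voom with quality weights called 5 (Rrm1, Ccna2, Kif23, Aurka and Kif11, among 7.81%).

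Other genes of the same processes were taken from lists that were chosen with earlier results of these data known. Their counts stand beside 4.02% lower and 6.94% higher among all genes tested. Of 42 other replication genes, 2 were lower in AML and none higher, with a median of -0.21: Pola1, the catalytic subunit of DNA polymerase alpha (log2 fold change -0.78 ± 0.17 SE, edgeR adjusted p = 0.0119), and Pcna, the sliding clamp (-0.96 ± 0.26 SE, 0.0285). Of 42 other mitosis genes, 3 were lower and none higher, with a median of -0.42 and 40 below 0. These were Mad2l1 of the spindle checkpoint (-0.78, edgeR adjusted p = 0.0166), the microtubule-binding Nusap1 (-1.28, 0.0265) and the kinetochore gene Spc25 (-1.23, 0.0470). Pcna, Nusap1 and Spc25 lie in the chromosome 2 interval that was near 52% in 3 AML libraries. None of these 5 calls was left without those 3 libraries, with Pola1 at -0.60 (edgeR adjusted p = 0.136), Pcna at -0.36 (0.205), Mad2l1 at -0.39 (0.266), Nusap1 at -0.58 (0.235) and Spc25 at -0.47 (0.326). All 5 calls were also lost without URE het Tet2 het replicate 1 alone (edgeR adjusted p from 0.0762 for Pola1 to 0.204 for Spc25), and those of Pcna, Nusap1 and Spc25 without URE het Tet2 KO replicate 3 alone. Over 27 alternatives the call was lost in 2 for Pola1, 4 for Pcna, 3 for Mad2l1, 4 for Nusap1 and 18 for Spc25, whose adjusted p reached 0.386.

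Control genes of the cell cycle were mixed, beside the same 4.02% lower and 6.94% higher of all genes tested. Of 16 cyclin and CDK genes, Cdk6, a G1 kinase, was higher (0.75, edgeR adjusted p = 0.0397) and Ccnd1, cyclin D1, lower (-1.35, 0.0087). Of 6 CDK inhibitors with enough counts, of 8 listed, Cdkn1c, which encodes p57, was higher (2.12, edgeR adjusted p = 0.00235). Of 20 genes of the E2F, RB and DREAM complexes, Rbbp4, a histone-binding subunit, was lower (-0.46, 0.0232). None of these 4 calls was left without the 3 libraries with low chromosome 2, with Cdk6 at 0.11 (edgeR adjusted p = 0.857), Ccnd1 at -1.53 (0.0513), Cdkn1c at 1.34 (0.168) and Rbbp4 at -0.39 (0.162). Without URE het Tet2 het replicate 1 alone, the calls of Cdk6 (edgeR adjusted p = 0.35), Ccnd1 (0.0588) and Rbbp4 (0.12) were lost, and without URE het Tet2 KO replicate 2 alone those of Cdk6 and Rbbp4. Over 27 alternatives the call was lost in 18 for Cdk6, 3 for Ccnd1, 2 for Cdkn1c and 8 for Rbbp4. None of 10 genes of the replication checkpoint passed in edgeR, and 1 had an unadjusted p under 0.05, against 26.3% of all genes. Over these 6 companion lists, 15 genes lie in the chromosome 2 interval, where 3 were lower and the median was -0.82. Of the 121 outside it, 4 were lower and 2 higher, against 4.02% and 6.94% of all genes, with a median of -0.23.

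Several sums of cell type markers were lower in AML libraries, and not only in those with low chromosome 2. The summed level of 13 erythroid genes was 122 to 279 CPM in Normal libraries, 63.0 to 71.0 in the 3 AML libraries with low chromosome 2 and 159 to 177 in the other 2, and Gata1 was at 0 in the 3. That of 9 late neutrophil genes was 26330 to 93360, 11590 to 26830 and 14630 to 38240 CPM. That of 8 mast cell and basophil genes was 155 to 530.1, 21.9 to 34.4 and 66.3 to 139 CPM. Each of these sums was lower in the 3 libraries than in most or all Normal libraries. In the other 2 the mast cell and basophil sums were also below all Normal libraries. Their lower late neutrophil sum, 14630 CPM, was below all Normal libraries too, whereas the highest of the 3, 26830 CPM, was not.

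The sum of 8 stem cell genes was 49.0 to 165 CPM in Normal libraries. It was 13.5 to 23.8 in the 3 and 27.7 to 103 in the other 2. Most of the sum in the 3 was Hlf, at 11.7 to 22.8 CPM against 20.7 to 57.3 in Normal libraries. The other stem cell genes of the list were below all Normal libraries in the 3, with Procr at 0 against 0.549 to 3.26 CPM. The sum of 7 megakaryocyte genes was 9.35 to 17.3, 1.85 to 3.01 and 5.50 to 20.6 CPM, in the same order of libraries. Pf4 was at 0 in the 3, against 0.496 to 2.76 CPM in Normal libraries, and Itga2b and Gp9 were also below all Normal libraries. Vwf, Gp1bb, Mpig6b and Ppbp overlapped the Normal range in the 3. For both lists the lower sum of the other 2 was also below the Normal range. The sum of 8 T and NK cell genes was low throughout (3.93 to 15.6, 0.774 to 10.5 and 1.65 to 7.60 CPM), and Cd8a and Cd4 were at 0 in the 3 and in at least 1 Normal library. The highest value in the 3 was above the highest in Normal libraries for Cd3e (2.93 against 0.985 CPM), Klrb1c (6.41 against 3.69) and Cd3g (0.968 against 0.617).

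Progenitor genes were mixed. The sum of 8 progenitor genes was 3781 to 8777 CPM in Normal libraries, 7338 to 9327 in the 3 and 6350 to 9623 in the other 2. Most of this sum was Mpo, the myeloperoxidase gene. The mean log2 level of the 8, which weights them equally, was 7.28 to 7.83 in Normal libraries, lower at 6.23 to 6.52 in the 3, and 6.96 and 7.71 in the other 2. Elane, which encodes neutrophil elastase, was at 1204 to 1953 CPM in the 3 against 193 to 912 in Normal libraries. Gata2 was at 0 to 0.998 CPM in the 3 against 3.003 to 9.32, and Ptprc, which encodes CD45, at 122 to 336 against 369 to 857. Among them Cd34 was at 0.0650 to 0.545 CPM in the 3, against 59.4 to 145 in Normal libraries and 10.1 to 73.6 in the other 2. The part of cell composition in the members' levels was not tested. Mitochondrial genes took 26.4% to 40.4% of counts in Normal libraries, 26.7%, 40.7% and 44.5% in the 3, and 32.1% and 27.6% in the other 2, and their part was not tested either.

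Each mutation alone was compared with WT. No member passed in edgeR for URE het minus WT, Tet2 het minus WT or Tet2 KO minus WT, where 0% of all genes passed in each. DESeq2 and voom called none either. At an unadjusted p under 0.05 there were 2 members for URE het (Cdc45, 0.52 ± 0.24 SE, and Ttk, 0.67 ± 0.26 SE, against 3.77% of all genes), none for Tet2 het (2.93%) and none for Tet2 KO (2.57%). G2/M members were above 0 in 26 of 27, 27 of 27 and 27 of 27 cases, with medians of 0.31, 0.24 and 0.30, and S phase members had medians of -0.03, -0.08 and 0.11. The 3 comparisons share the same WT libraries, so these values are not independent. Nor are the members, which move together within a library. In WT replicates 1, 2 and 3, 14, 23 and 27 of the 27 G2/M members lay below the median of the other Normal libraries.

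The compound genotypes were compared with the single mutants and with each other, and URE het Tet2 KO also with WT. URE het Tet2 het was not compared with WT. In edgeR no member passed in any of these 6 comparisons. For URE het Tet2 KO minus WT 3.39% of all genes passed, and 2 members had an unadjusted p under 0.05 (Ung and Hells, both lower, against 19.4%). For URE het Tet2 KO minus Tet2 KO 0.977% passed, and 3 members were under 0.05 unadjusted (Hells, Top2a and Kif11, against 15.1%), with medians of -0.51 for G2/M and -0.28 for S phase members. For URE het Tet2 KO minus URE het 0.356% passed, and 7 members were under 0.05 unadjusted, against 15.1%, with medians of -0.59 and -0.18. For URE het Tet2 het minus Tet2 het 0% passed, and 2 members were under 0.05 unadjusted (Rrm1 and Ccna2, against 13.3%), with medians of -0.52 and -0.31. For URE het Tet2 het minus URE het 0% passed, and 8 members were under 0.05 unadjusted, against 13.2%, with medians of -0.71 and -0.37. For URE het Tet2 KO minus URE het Tet2 het 0.01% passed, and Ccnb1 alone was under 0.05 unadjusted (0.83 ± 0.36 SE, against 11.7%).

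The counts depended on the tool and on 1 library. Voom called 12 members for URE het Tet2 KO minus WT, among 26.4% of all genes. It called 24 minus Tet2 KO, among 18.4%, and 29 minus URE het, among 17.1%. All were lower, and voom called none in the other 3. DESeq2 called Rrm1 and Ccna2, both lower, for URE het Tet2 het minus URE het, among 2.66%, and none in the other 5. Without URE het Tet2 KO replicate 1, edgeR called 5 for URE het Tet2 KO minus WT, among 12.7% of all genes. These were Hjurp, Nuf2, Cenpe, Kif23 and Cdk1. It called 17 minus Tet2 KO, among 9.05%, and 18 minus URE het, among 9%, all lower. Without URE het Tet2 het replicate 2, edgeR called Tyms, lower, for URE het Tet2 het minus Tet2 het and minus URE het. That genotype is then 1 library, assumed to vary like the other groups. Without the 3 libraries with low chromosome 2, Ccnb1 alone was called, higher, for URE het Tet2 KO minus WT and minus URE het Tet2 het. Each compound genotype is then 1 library, with the spread taken from the other groups.

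Whether the URE deletion had a different effect on Tet2-mutant than on Tet2 wild-type marrow was tested as an interaction. With Tet2 KO, no member passed in edgeR or DESeq2, as for 0% of all genes in edgeR, and 7 were under 0.05 unadjusted (Ccne2, Top2a, Ccna2, Kif11, Cdc20, Ttk and Ect2, all below 0, against 8.11% of all genes). The medians were -0.81 for G2/M members, with 27 of 27 below 0, and -0.38 for S phase members. Voom called 19, all below 0, among 9.15% of all genes. Without URE het Tet2 KO replicate 1 edgeR called 7, among 1.4% (Nuf2, Ect2, Ccna2, Anln, Ttk, Ccnb1 and Kif11). With Tet2 het, an interaction added after the data were seen, no member passed in edgeR, DESeq2 or voom, as for 0% of all genes in edgeR, and 9 were under 0.05 unadjusted, against 9.2%, with medians of -0.97 and -0.42. The single-mutant and WT libraries enter several of these contrasts, so the contrasts are not independent.

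Members also differed between libraries of 1 genotype by the range of numbers in their titles. Titles numbered 1 to 7 hold the first replicate of each genotype and WT replicate 2, and titles 8 to 17 the others. What the number stands for was not given. In the 12 Normal libraries, with genotype in the fit, 21 of 48 members differed between the ranges, against 36.4% of all genes tested. Higher in the later range were 4 members, against 17.1% of all genes, and lower were 17, against 19.3%. This comparison was added after the data were seen. Spi1 in the Normal libraries was at 90.9 to 137 CPM in titles 1 to 7 and at 45.3 to 63.1 CPM in titles 8 to 17.

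The 4 higher were all S phase members: Rrm1, Tyms, Hells and Ccne2. Ccne2 lay at 24.3 to 32.0 CPM in the 5 earlier and at 40.7 to 67.7 CPM in the 7 later Normal libraries, which did not overlap (log2 fold change 0.84 ± 0.14 SE, edgeR adjusted p = 0.000540). Rrm1 lay at 129.6 to 186 and at 202 to 256 CPM, also without overlap (0.40 ± 0.09 SE, edgeR adjusted p = 0.00420). The 17 lower were Mcm7, Gins2, Chaf1b and Ung of the S phase list and 13 G2/M members. Ung lay at 21.7 to 40.7 CPM in the earlier and at 9.70 to 17.9 CPM in the later libraries, without overlap (-1.0 ± 0.15 SE, edgeR adjusted p = 0.000233). Cenpf (-0.91 ± 0.14 SE, edgeR adjusted p = 0.000322), Cenpe (-0.79), Mki67 (-0.68), Tacc3 (-0.66) and Top2a (-0.40) were among the 13. Over all 17 libraries 13 members differed (1 higher, Ccne2, and 12 lower), against 26.9% of all genes.

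**Figure D5:**
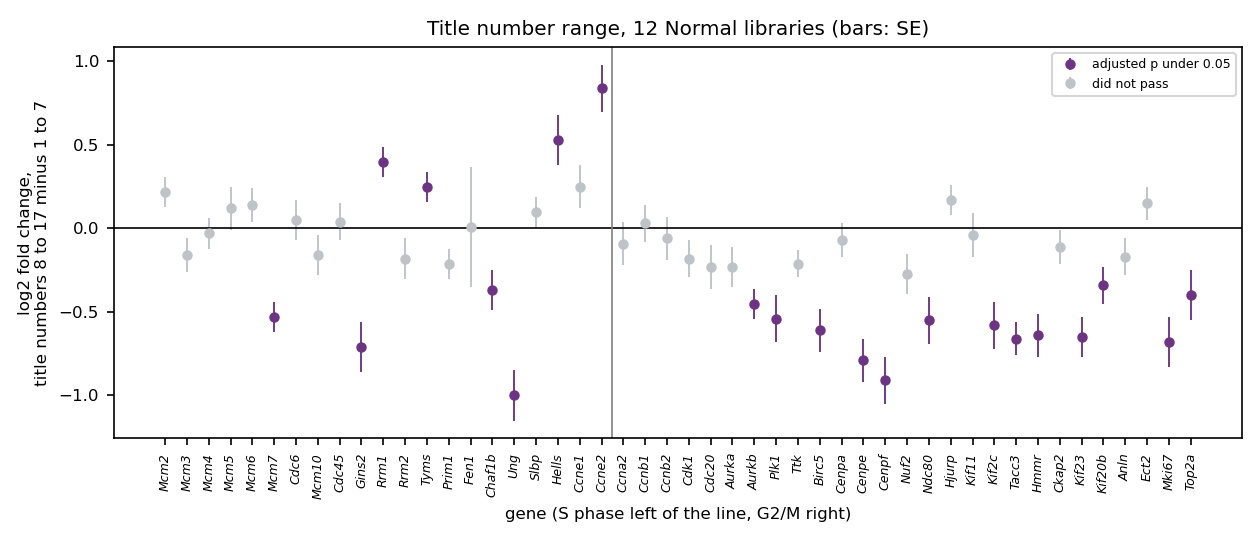
Log2 fold change (titles 8 to 17 minus titles 1 to 7) ± SE of the 48 members in the 12 Normal libraries, with genotype in the fit. Purple marks the 21 members that passed, 4 higher and 17 lower in the later range.

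The comparison of AML with Normal was therefore repeated within the ranges. Of the libraries with low chromosome 2, URE het Tet2 KO replicates 2 and 3 fall in titles 8 to 17 and URE het Tet2 het replicate 1 in titles 1 to 7. The ranges therefore differ in their mix of AML libraries. In titles 8 to 17 WT and URE het Tet2 het hold 1 library each and take their spread from the other groups. Within titles 8 to 17 alone (3 AML and 7 Normal libraries), 15 members passed, 2 S phase and 13 G2/M, all lower, among 20.9% of all genes. Rrm1 was at -0.85 ± 0.14 SE (edgeR adjusted p = 0.00433), Ccna2 at -0.95 ± 0.19 SE (0.0101) and Top2a at -0.72 ± 0.18 SE (0.0247). Within titles 1 to 7 alone (2 AML and 5 Normal libraries, as 2 means) no member passed in edgeR, against 3.15% of all genes, and 3 had an unadjusted p under 0.05, against 19%. There Rrm1 was at -0.16 (edgeR adjusted p = 0.855), Ccna2 at -0.35 (0.665) and Top2a at -0.64 (0.253). With a term for the range in the fit of all 17 libraries 7 members passed (Top2a, Ccna2, Rrm1, Kif11, Nuf2, Ung and Hells), all lower, among 18.4%.

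The table also held rows with the suffix enh after a gene identifier, whose meaning and coordinates were not given. Such rows exist for 33 members, 89 rows in all, of which 49 (27 members) had enough counts. None of the 49 passed for AML minus Normal in edgeR, against 4.12% of such rows over all genes. Of the 49, 25 were below 0, and their median was -0.01, where that of all such rows tested was 0.00. At an unadjusted p under 0.05 there were 2 of the 49, against 18% of all such rows, and no other tool was run on these rows. With replicate 1 of URE het Tet2 KO left out, rows of Mki67 and Kif23 passed, both lower, among 8.4% of such rows. With replicate 2 of URE het Tet2 het left out, a row of Mki67 passed, lower, among 8.62%. Without the 3 libraries with low chromosome 2 none passed, against 0.00483%. These rows were named after their values were seen.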

How the data were processed

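RNA of sorted cKit+ bone marrow cells was measured in 17 libraries. The deposited table held raw counts, which the authors made from reads aligned with STAR to GRCm38, per the submitters' processing notes. The sources used here do not give the STAR version, counting tool, annotation release or strandedness. Depth was 21.1 to 38.3 M gene counts per library. Symbols and coordinates came from GENCODE vM21, matched by Ensembl identifier without version (47224 matched, 39106 with the same version, 34 of 48 members).

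Genes passing filterByExpr (minimum count 10, total 15) were tested with edgeR 4.0.16 in R 4.3.3 (TMM scaling, robust quasi-likelihood, 1 mean per genotype over all 17 libraries, two-sided) and Benjamini-Hochberg adjustment over the 19951 genes at 0.05, in each of 12 comparisons. The SE is the size of the log2 fold change over the square root of its F statistic. Alternatives used DESeq2 1.42.0 (size factors and test), limma 3.58.1 (voom with quality weights), no filter, only the groups compared, a term for title number ranges, each range alone, equal weight per library, each library left out, and the 3 libraries with low chromosome 2 or the other 2 AML libraries left out. The fits were tested on simulated data. Rows marked enh were tested apart, with the library sizes of the genes.

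Members and lists were chosen with earlier results of these data known. Values in every library are given for Mki67, Top2a, Mcm2, Mcm6, Cdk1, Ccnb1, Ccne1 and Ccne2, for members that passed in any comparison, and for the 3 highest and 3 lowest fold changes of each list in AML minus Normal (all 27 of G2/M were below 0). Of each other list, up to 4 genes that passed are named by smallest p. Promoters came from RefSeq (GRCm38.p6), and 5 members with no entry were not analysed there. Of the marker lists, that of B cells is not reported here.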

Additional observations from a re-analysis of the deposited data

Results flagged for a closer look

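In the 5 AML libraries, 3 values stood far from the other 4 by Dixon's ratio (gap to the nearest value over the whole range, critical value 0.71 for 5 samples). All 3 were the highest value and came from URE het Tet2 KO replicate 1: Ccnb1 at 136.478 CPM (ratio 0.780), Ccna2 at 182.055 CPM (0.716) and Plk1 at 86.968 CPM (0.805). Of these, Ccnb1 and Plk1 lay above all 12 Normal libraries and Ccna2 within their range. The 48 members and both list levels, 50 values, were examined in this way, and chance marks about 1 in 20 such groups.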

How the results depend on the processing

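For AML minus Normal, 3 members were called, and the count moved to 8 with the DESeq2 test, 5 with voom, 7 with a term for the title number range, 15 within titles 8 to 17, 0 within titles 1 to 7, 0 without the 3 libraries with low chromosome 2 and 41 without the other 2 AML libraries. Leaving out 1 library gave 0 to 30. The medians without the other 2 were -0.80 (S phase) and -0.94 (G2/M). Without the 3, the S phase median was 0.00. Leaving out 1 library gave -0.61 to -0.16 and -0.75 to -0.32. In the other comparisons, where edgeR called 0, voom called 12, 24 and 29 for URE het Tet2 KO minus WT, minus Tet2 KO and minus URE het. The shares of all genes called there were 26.4%, 18.4% and 17.1%. For the interaction with Tet2 KO voom called 19, among 9.15%. DESeq2 called 2 for URE het Tet2 het minus URE het, among 2.66%. Within titles 8 to 17, WT and URE het Tet2 het hold 1 library each and take their spread from the other groups. There, in the same order, 5, 27, 32, 9 and 1 were called, and 11 for URE het Tet2 KO minus URE het Tet2 het. The matching shares of all genes called were 13.6%, 17.1%, 18.2%, 3.51%, 7.27% and 23.6%. Without the 3, each compound genotype is 1 library, so no count is given for these comparisons. Leaving out 1 library gave 0 to 5 for URE het Tet2 KO minus WT, 0 to 17 minus Tet2 KO and 0 to 18 minus URE het. It gave 0 to 7 for the interaction with Tet2 KO and 0 to 0 elsewhere. Fits that leave URE het Tet2 het with 1 library are not counted there. Rows marked enh gave 1 with no filter (Mki67), 0 without the 3 and 0 to 2 with 1 library left out.

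Signs changed for several members. Without the 3, 10 of 21 S phase and 14 of 27 G2/M members were below 0. Cdc45 was -0.01 with DESeq2 size factors and -0.01 with the DESeq2 test, -0.02 with voom, -0.02 within titles 1 to 7 and -0.27 without the other 2. Ccne1 was -0.27 with voom, -0.05 within titles 8 to 17 and -0.73 without the other 2. Prim1 was 0.20 within titles 8 to 17 and 0.35 without the 3. Within titles 1 to 7, Ccnb1 was 0.24, Ccne2 0.00, Cenpf 0.02 and Ckap2 0.13. Without the 3, Ccnb1 was 0.08, Ckap2 0.27 and Tacc3 0.46. With 1 library left out, Ccne1 ran from -0.38 to 0.36, Prim1 from -0.51 to 0.21 and Cdc45 from -0.22 to 0.19. The cause of these changes was not tested. Over the alternatives, edgeR, DESeq2 or voom adjusted p ran from 0.00123 to 0.855 for Rrm1, 0.000361 to 0.665 for Ccna2 and 0.00593 to 0.434 for Top2a.

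No paired analysis was possible because replicate numbers follow the order of the libraries and the labels name no shared animal or litter. With 2 or 3 libraries per genotype, differences in single genotypes had wide errors, and a value that missed the threshold does not show that the groups were alike.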
